A study of Mus musculus with 5 samples.

Results

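Runx2, Runx3, Sp7, Mef2c, Col10a1, Pth1r, Ibsp, Alpl, Panx3 and Spp1, genes used to recognise hypertrophic chondrocytes and osteoblasts, were followed through the knee joints of mouse embryos at embryonic stage E14.5. These 10 of 19346 targets were taken from the table by name. The study profiled RNA in regions drawn on tissue sections by GeoMx digital spatial profiling, in which barcoded probes are hybridised to the section, released by light from a chosen region and sequenced. The GOF group held 2 animals labelled Prrx1-Cre Pdgfra GOF, which carry the Prrx1-Cre driver, active in limb bud mesenchyme, and a gain-of-function allele of the PDGF receptor gene Pdgfra. The control group held 2 animals labelled Prrx1-Cre, which carry the driver alone, so both groups share it. Because Prrx1-Cre acts in limb mesenchyme and its descendants, vessels, nerves and muscle fibres in the same sections are not its main targets. Sections of 5 µm were cut from fixed, paraffin-embedded knees, and regions were drawn after staining for Sox9 protein and DNA, so Sox9 itself is part of the choice.

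Long bones form from cartilage. Chondrocytes stop dividing and swell, becoming prehypertrophic and then hypertrophic, and osteoblasts from the surrounding perichondrium then lay down bone on the matrix they leave. Runx2, with Runx3 and Mef2c, is a transcription factor that drives hypertrophy, and Runx2 followed by Sp7 (osterix) is required for osteoblasts. Pth1r, the receptor for parathyroid hormone-related protein, holds chondrocytes back from hypertrophy and is itself made by prehypertrophic cells. Col10a1, the collagen of the hypertrophic zone, Panx3, a channel protein, Alpl, the phosphatase of mineralising tissue, Ibsp (bone sialoprotein) and Spp1 (osteopontin) are products of later stages. A joint interzone normally avoids this programme and keeps the opposing cartilages apart.

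Of the regions in the table, 47 and 46 came from GOF replicates 1 and 2 and 46 and 40 from control replicates 1 and 2. Their total counts ran between 55471 and 617062, with a median of 217177. Both groups had regions tagged inter-joint space, inter-joint perichondrium and border-zone cartilage. Fusion was tagged in GOF knees alone, in 9 and 8 regions, of which 6 and 5 also carried an interzone tag; the labels do not define these tags. Each animal also had 1 cartilage and 1 mesenchyme region that the tags call controls, here termed reference cartilage and reference mesenchyme. Summed signal of 14 chondrocyte markers fitted these names: it was 10992 and 12232 in the GOF and 13665 and 14081 in the control reference cartilage, against 198 to 436 in the reference mesenchyme. The reference mesenchyme instead carried skeletal muscle genes, whose 12 markers summed to 1377 and 926 in the GOF and 1333 and 884 in the control regions, against 54.98 to 87.02 in every other animal and type. In bulk regions, fewer cells of a type and less RNA per cell cannot be told apart. The labels do not say how regions map to separate sections, and some regions of an animal may be neighbours, so values were averaged per animal.

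In the mm10 assembly (GRCm38.p6, RefSeq annotation) the early regulators lie apart from each other. Runx2 is at chr17:44495987-44814797, Runx3 at chr4:135120645-135177990, Sp7 at chr15:102356603-102367035 and Mef2c at chr13:83504017-83667079. Pth1r is at chr9:110722085-110747145, Col10a1 at chr10:34389981-34397085, Panx3 at chr9:37659902-37669222 and Alpl at chr4:137741731-137796384. The genes of the secreted bone phosphoproteins, Ibsp at chr5:104299287-104311472 and Spp1 at chr5:104435111-104441053, are near neighbours. The sources used here do not give the part of each transcript that its probe reads.

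RefSeq promoter windows of 300 bases, from 250 before to 50 after a start position, were matched for 8 of the 10 genes. For Runx2 and Mef2c the start behind the window is not the gene boundary given above but a position inside the gene. Those of the 3 genes with a RUNX core motif are shown because the encoded Runx factors are themselves among the genes followed here. Capitals mark TGTGGT read on either strand, so that ACCACA is its form on the opposite strand. The windows are chr17:44814578-44814877 on the minus strand for Runx2, chr4:135120395-135120694 on the plus strand for Runx3 and chr5:104434861-104435160 on the plus strand for Spp1.
Runx2: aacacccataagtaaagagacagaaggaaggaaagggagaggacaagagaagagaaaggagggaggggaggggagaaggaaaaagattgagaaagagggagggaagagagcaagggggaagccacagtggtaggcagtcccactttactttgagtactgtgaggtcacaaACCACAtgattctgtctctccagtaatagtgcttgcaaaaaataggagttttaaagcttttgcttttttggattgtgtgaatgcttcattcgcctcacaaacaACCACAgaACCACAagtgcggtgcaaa
Runx3: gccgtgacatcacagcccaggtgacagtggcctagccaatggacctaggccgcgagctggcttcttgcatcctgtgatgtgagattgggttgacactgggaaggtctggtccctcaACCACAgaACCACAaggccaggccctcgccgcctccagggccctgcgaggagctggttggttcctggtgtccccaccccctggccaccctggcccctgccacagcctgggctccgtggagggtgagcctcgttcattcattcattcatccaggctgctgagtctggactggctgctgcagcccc
Spp1: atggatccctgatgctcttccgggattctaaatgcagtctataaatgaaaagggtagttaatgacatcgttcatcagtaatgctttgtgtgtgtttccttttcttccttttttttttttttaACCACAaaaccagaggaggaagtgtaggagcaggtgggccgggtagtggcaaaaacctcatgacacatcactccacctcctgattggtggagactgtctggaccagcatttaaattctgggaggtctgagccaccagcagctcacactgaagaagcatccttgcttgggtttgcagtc
Runx2 held 3 matches, Runx3 held 2 and Spp1 held 1. A close pair of matches with the same spacing was in the windows of both Runx2 and Runx3. The motif was present in 16.8% of the 32851 promoter windows in the same table, so a match alone is common. The windows of Mef2c, Col10a1, Pth1r, Ibsp and Alpl held none, and none of the 8 windows held the AP-1 motif TGANTCA (7.81% of all windows) or the EGR motif GCGNGGGCG (5.55% of all windows). A missing match says only that these letters are not in the window. The windows of Mef2c (chr13:83503784-83504083, plus strand) and Pth1r (chr9:110747096-110747395, minus strand) are shown beside them because these genes gave the clearest differences between GOF and control joints.
Mef2c: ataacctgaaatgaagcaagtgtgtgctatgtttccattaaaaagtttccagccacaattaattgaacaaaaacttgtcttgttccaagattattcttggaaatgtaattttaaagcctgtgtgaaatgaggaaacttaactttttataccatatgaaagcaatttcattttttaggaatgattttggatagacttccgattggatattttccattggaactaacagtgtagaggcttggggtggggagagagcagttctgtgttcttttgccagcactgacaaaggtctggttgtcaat
Pth1r: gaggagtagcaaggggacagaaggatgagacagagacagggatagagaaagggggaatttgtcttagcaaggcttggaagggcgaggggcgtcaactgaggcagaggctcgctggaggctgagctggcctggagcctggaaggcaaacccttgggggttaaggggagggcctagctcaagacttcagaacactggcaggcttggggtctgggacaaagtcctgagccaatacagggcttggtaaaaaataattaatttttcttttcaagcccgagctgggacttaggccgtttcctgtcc

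Most of these genes were barely measured at this stage. Signal is in upper-quartile-normalised units, in which 10.9 marks the upper quartile of targets in every region. The negative probe, which has no mouse target and measures background, averaged 2.82 and ran between 1.72 and 4.29. As a second measure of background, 1064 chemosensory receptor targets, added after the data were seen, had a median level of 4.33 and a 95th percentile of 6.14. Over all regions Mef2c averaged 15.2, Pth1r 13.9, Runx3 7.78 and Sp7 6.49, all above that percentile. The 6 other genes were not above it. Runx2 averaged 5.39, Col10a1 4.88, Spp1 4.80, Panx3 4.41, Alpl 4.22 and Ibsp 3.85. Levels of different probes are set here only against background, not against each other.

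The share of regions with at least 2 times their own negative probe value gave the same division at the receptor 95th percentile. It was 97.2% for Mef2c, 96.1% for Pth1r, 65.9% for Runx3 and 59.8% for Sp7. Over the receptor targets the median was 25.1% and the 95th percentile 54.7%. It was 40.8% for Runx2, 29.1% for Col10a1, 24.6% for Spp1 and for Panx3, 20.7% for Alpl and 15.1% for Ibsp. Ibsp and Alpl, which mark osteoblasts and mineralising matrix, thus sat at or below the receptor targets. A low level at this depth is not detectable above background, which is not the same as absent.

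**Figure D1:**
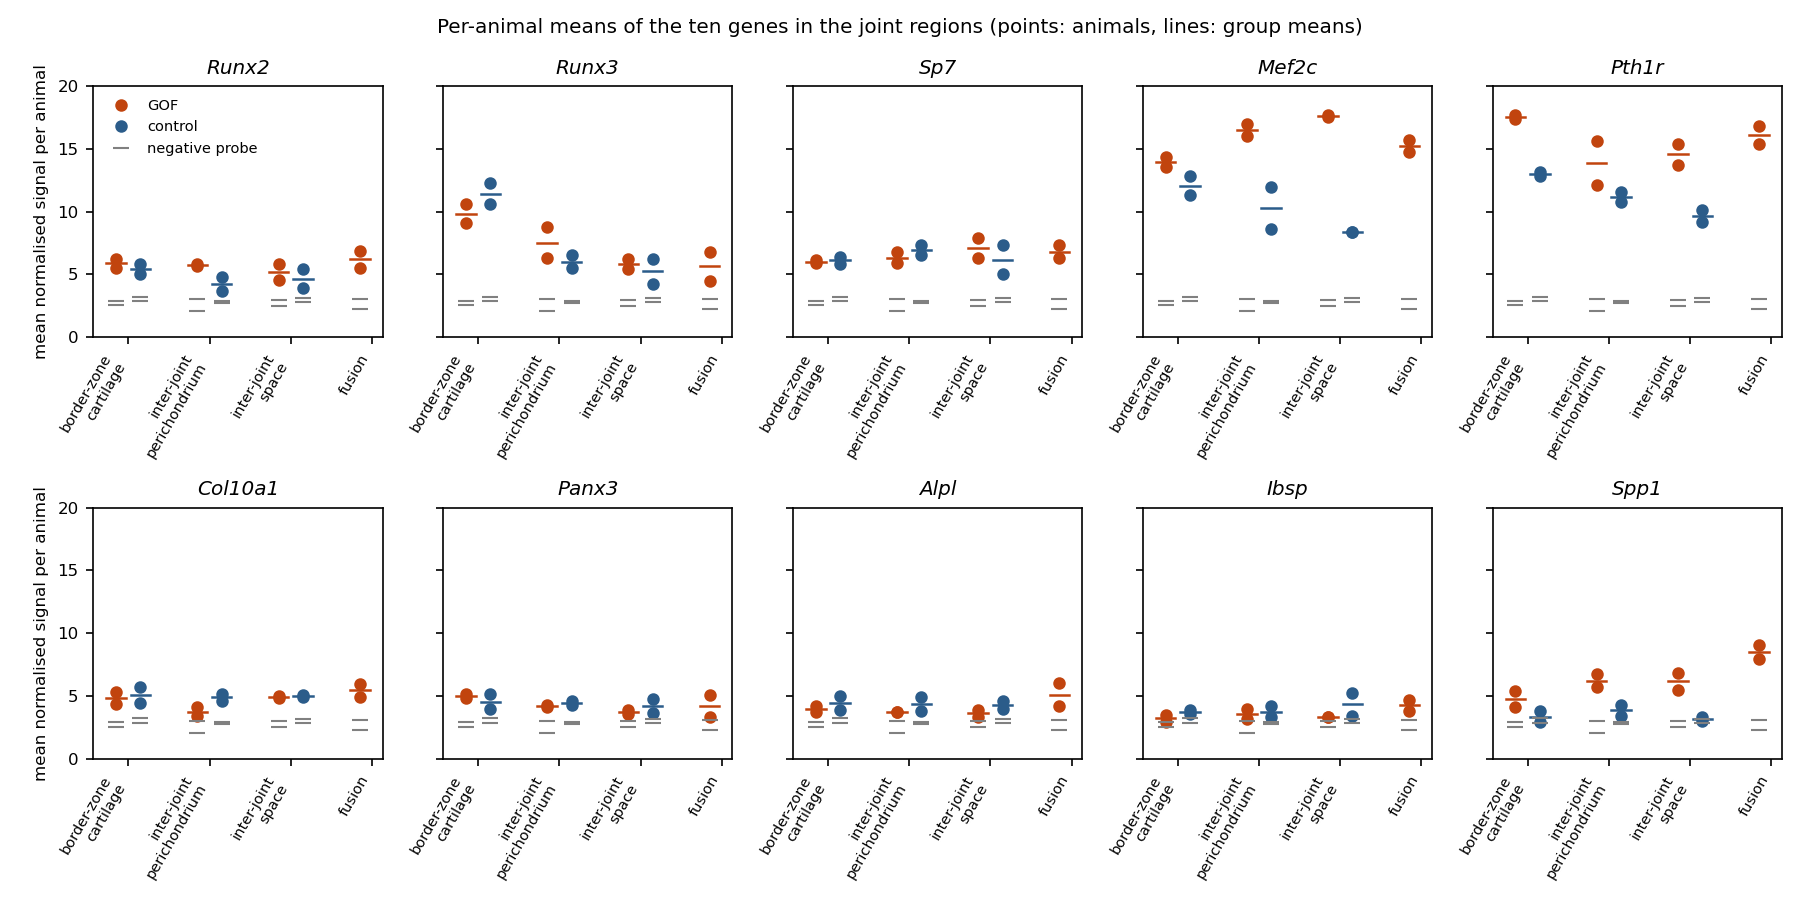
Mean normalised signal of each gene per animal (vertical axis) in the joint region types (horizontal axis), with GOF in orange left of control in blue, group means as lines and the negative probe of the same animals as grey dashes. Mef2c and Pth1r stand clear of the negative probe in every type, and the lower row, other than Spp1 in GOF tissue, lies close to it.

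Mef2c, a MADS-box factor of chondrocyte hypertrophy that also acts in muscle and endothelium, was higher in GOF than in control joints, most of all in the inter-joint space. Mef2c in the inter-joint space averaged 17.5 and 17.7 in GOF replicates 1 and 2, against 8.40 and 8.42 in control replicates 1 and 2. Both GOF animals lay well above both controls. In the inter-joint perichondrium it averaged 16.1 and 16.9 in GOF animals, against 11.97 and 8.62 in controls. In border-zone cartilage the groups were closer, with 14.3 and 13.5 in GOF animals, against 11.3 and 12.8 in controls. The order of the group means put all 4 GOF types, space at 17.6, perichondrium at 16.5, fusion at 15.2 and border-zone cartilage at 13.9, above the 3 control types, border-zone cartilage at 12.1, perichondrium at 10.3 and space at 8.41. The animals of control border-zone cartilage and control perichondrium overlapped, and no other neighbours in this order did.

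For Mef2c the outcome of the test depended on whether the reference types, cartilage and mesenchyme together, were in the fit. The limma fit over all 11 combinations of group and type estimates 1 spread per gene, and Mef2c in the muscle-containing reference mesenchyme was 221 in GOF replicate 1 and 19.04 in GOF replicate 2. In that fit the GOF minus control difference in the space was 0.93 ± 0.60 on the log2(signal + 1) scale (SE, n = 2 animals each, limma adjusted p = 1.0). A limma fit of the 7 joint-region combinations alone, listed as an alternative, gave the same 0.93 with an SE of 0.14 and an adjusted p of 1.61e-05. Leaving out only the GOF replicate 2 mesenchyme region called none of the 10 genes, and no fit left out the mesenchyme alone. Mef2c also rose in GOF perichondrium in the joint-region fit, by 0.64 ± 0.14 (SE, n = 2 each, limma adjusted p = 0.00808). Its difference in border-zone cartilage was 0.21, with a 95% interval between -0.08 and 0.50 (limma adjusted p = 0.906). The space effect exceeded the border-zone effect by 0.72 (limma joint-region interaction, adjusted p = 0.0540), which missed the threshold.

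**Figure D2:**
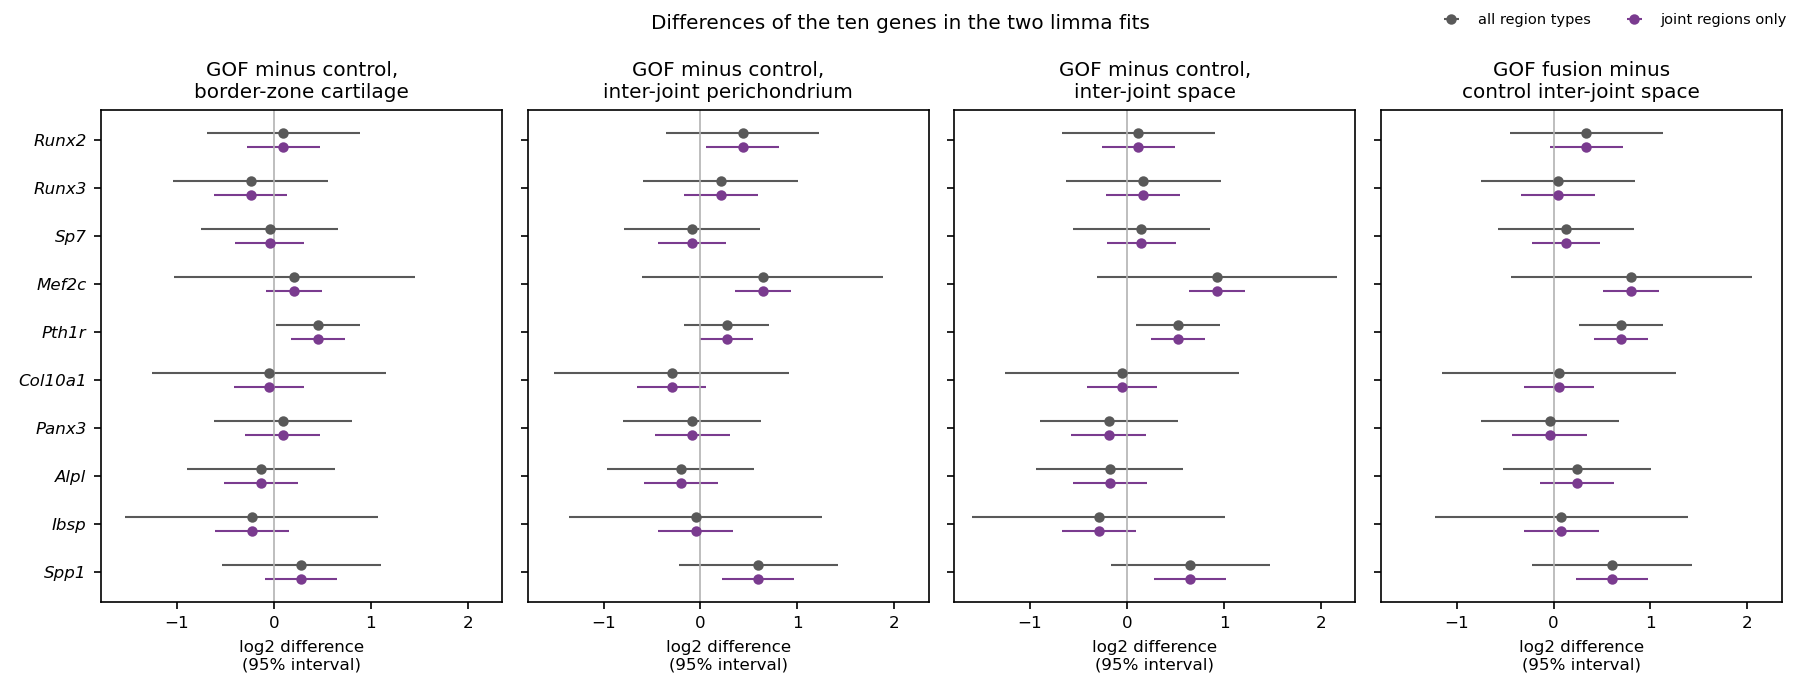
Differences of the 10 genes on the log2(signal + 1) scale (horizontal axes) with 95% intervals from the limma fit over all region types (grey) and over joint regions alone (purple), for GOF minus control in 3 types and for fusion minus control inter-joint space. Point estimates are the same in both fits, and the intervals of Mef2c, Ibsp and Col10a1 narrow most once the reference regions are left out.

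The Mef2c difference in the space held whichever animal was left out of the joint-region fit, with limma adjusted p between 0.000213 and 0.00235. EdgeR on recovered counts did not call Mef2c in the space, at 1.07 (adjusted p = 0.151), or in the perichondrium, at 0.71 (adjusted p = 0.495). The perichondrium difference of the joint-region fit did not hold, since without control replicate 2 it was 0.42 (limma adjusted p = 1.0). Markers of endothelium, a cell type that makes Mef2c, moved with it in the space. The 11 measured endothelial markers summed to 91.2 and 93.5 in the GOF space, against 68.8 and 66.03 in the control space, and 11 and 11 of them in GOF, against 3 and 6 in control, reached 2 times the negative probe. Endothelial markers in the perichondrium, where the Mef2c difference did not hold, summed to 60.7 and 57.5 in GOF animals, against 63.2 and 59.8 in controls. Muscle markers summed to 61.4 and 67.9 in the GOF space, against 73.2 and 67.2 in the control space. In fusion regions, where Mef2c was also above the control space, endothelial markers summed to 61.99 and 63.8. The part of endothelial cells in the Mef2c difference of the space was not tested.

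Pth1r was higher in GOF tissue in every joint type by animal. In border-zone cartilage it averaged 17.3 and 17.7 in GOF replicates 1 and 2, against 12.9 and 13.1 in control replicates 1 and 2. In the inter-joint space it averaged 13.7 and 15.4 in GOF animals, against 10.1 and 9.18 in controls. In the perichondrium it averaged 12.1 and 15.6 in GOF animals, against 10.8 and 11.6 in controls. The groups did not overlap in any of the 3 types. All 4 GOF group means, 17.5 in border-zone cartilage, 16.1 in fusion, 14.6 in space and 13.9 in perichondrium, were above the control means of 13.01 in border-zone cartilage, 11.2 in perichondrium and 9.65 in space. In the order of group means, the animals of neighbouring GOF types overlapped from fusion down to perichondrium, and those of GOF perichondrium overlapped with control border-zone cartilage.

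In the fit over all types the Pth1r difference was 0.45 ± 0.21 in border-zone cartilage, 0.27 ± 0.21 in perichondrium and 0.53 ± 0.21 in space (SE, n = 2 each, limma adjusted p = 1.0 in each). The unadjusted limma p was 0.043 in border-zone cartilage and 0.020 in space. In the joint-region fit Pth1r rose in the GOF space, by 0.53 ± 0.14 (SE, limma adjusted p = 0.0206). The difference was 0.54 without control replicate 1 (limma adjusted p = 0.285) and 0.52 without control replicate 2 (limma adjusted p = 0.283), so its size stayed and the call was lost. With regions scaled by their negative probe it was 0.64 with a larger SE of 0.22 (limma adjusted p = 0.205).

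Spp1, a secreted phosphoprotein of bone matrix that macrophages and hypertrophic chondrocytes also make, was at background in control joints and above it in parts of GOF joints. In the inter-joint space it averaged 5.48 and 6.84 in GOF animals, against 3.30 and 3.01 in controls, whose negative probe averaged 3.17 and 2.84. In the perichondrium it averaged 5.69 and 6.73 in GOF animals, against 4.31 and 3.39 in controls. In border-zone cartilage it averaged 5.38 and 4.14 in GOF animals, against 2.90 and 3.77 in controls. The groups did not overlap in any of these types. Spp1 was uneven between regions. In the perichondrium 4 of 14 and 8 of 12 GOF regions reached 2 times their negative probe, against 2 of 19 and 1 of 16 in controls. In the space 3 of 7 and 3 of 8 GOF regions did, against 1 of 9 and 1 of 9 in controls. The highest Spp1 region was a fusion region of GOF replicate 2 at 38.1, from 28 counts. A perichondrium region of control replicate 1 at 30.5, also from 28 counts, and a space region of GOF replicate 2 at 21.8 followed. In GOF replicate 2 border-zone cartilage the mean was 4.14 and the median 1.99.

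In the fit over all types Spp1 in the space differed by 0.65 ± 0.39 (SE, n = 2 each, limma adjusted p = 1.0). In the joint-region fit it rose in the GOF space, by 0.65 ± 0.18 (SE, limma adjusted p = 0.0401). The edgeR quasi-likelihood test on recovered counts, which sums regions and so follows the high ones, gave 0.95 in the space (adjusted p = 0.0265) and 0.81 in the perichondrium (adjusted p = 0.00811). The joint-region call in the space was lost at similar sizes: 0.61 without GOF replicate 2 (limma adjusted p = 0.0795), 0.71 without control replicate 1 (adjusted p = 0.277) and 0.59 without control replicate 2 (adjusted p = 0.415). Macrophage markers, 12 genes, summed to 67.2 and 75.1 in the GOF space, against 72.6 and 69.2 in the control space. The part of macrophages in the Spp1 difference was not tested.

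**Figure D3:**
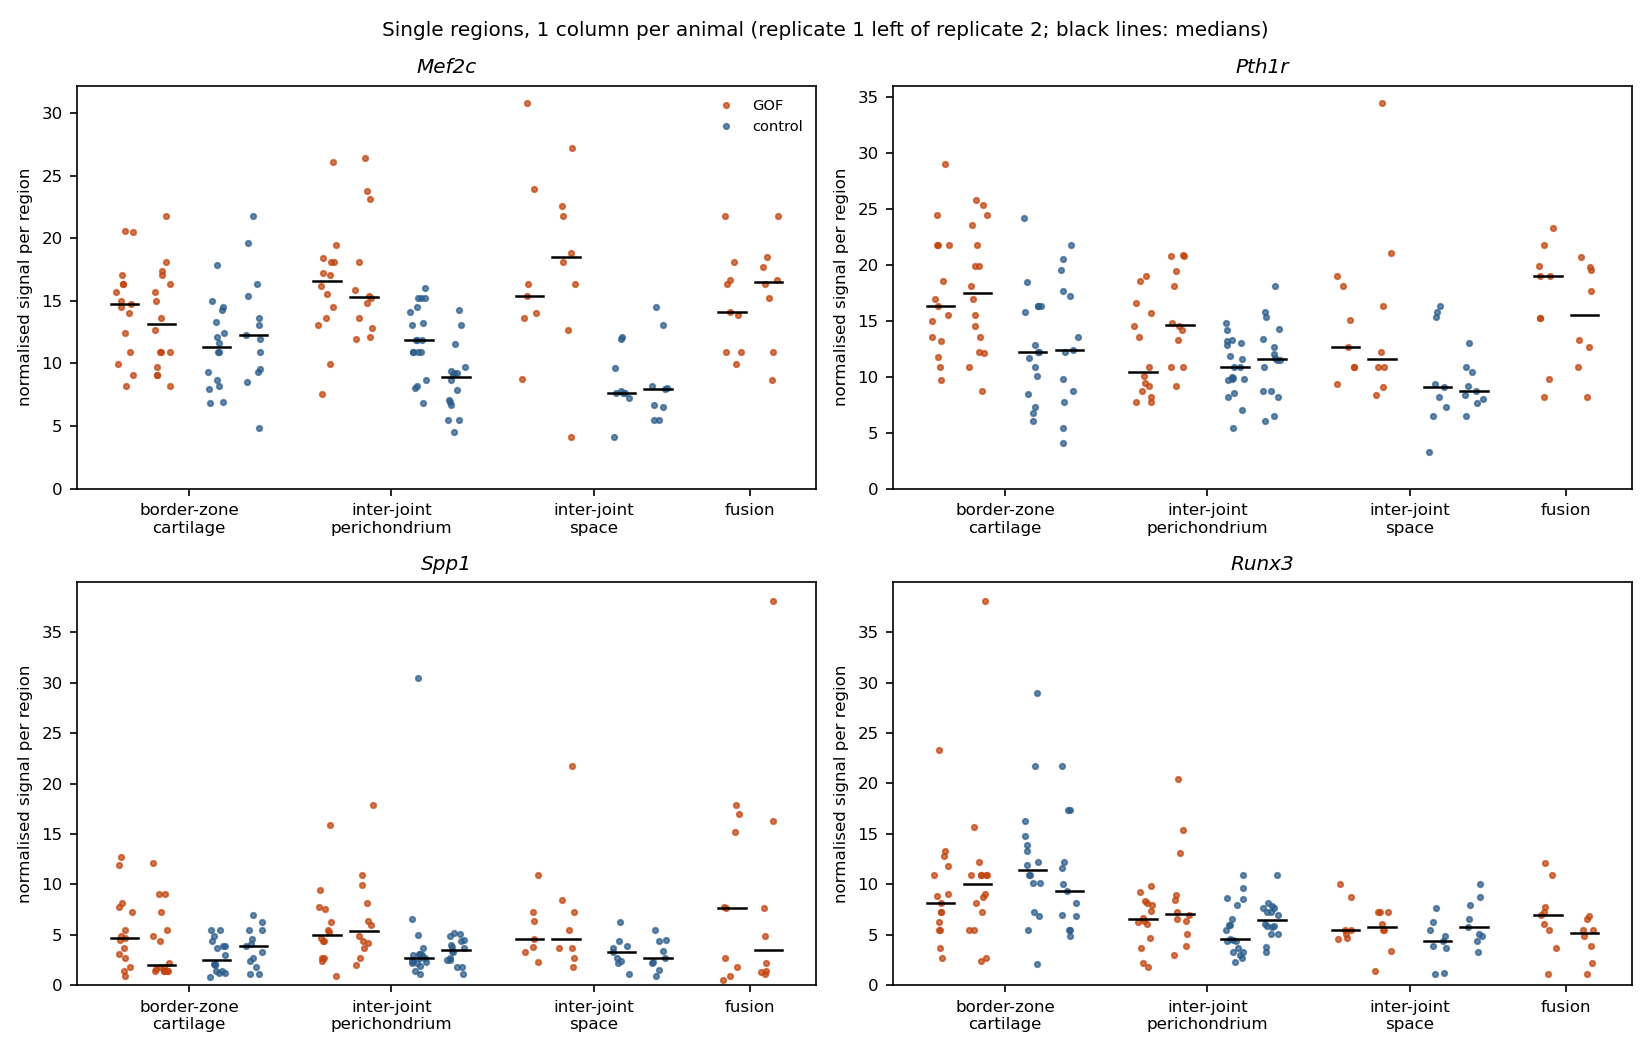
Normalised signal of Mef2c, Pth1r, Spp1 and Runx3 in single regions (vertical axes), 1 column per animal, with GOF in orange left of control in blue within each type and medians as black lines. Mef2c in the space is shifted across most GOF regions. Spp1 in the fusion and border-zone cartilage of GOF replicate 2 has a few high regions over a low median.

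The other 7 genes showed no genotype difference past the threshold. Sp7 in the space averaged 7.94 and 6.34 in GOF animals, against 7.34 and 5.03 in controls, and the animals overlapped. Runx2 in the perichondrium averaged 5.70 and 5.87 in GOF animals, against 4.79 and 3.72 in controls, without overlap, with a difference of 0.44 (95% interval 0.06 to 0.81, limma joint-region adjusted p = 0.591). Col10a1 in the space averaged 4.86 and 4.98 in GOF animals, against 4.92 and 5.09 in controls, with a difference of -0.05 (95% interval -0.41 to 0.31 in the joint-region fit). Col10a1 in the perichondrium averaged 3.41 and 4.10 in GOF animals, against 5.20 and 4.61 in controls, with a difference of -0.30 (95% interval -0.66 to 0.06). Such intervals leave room for modest changes of either sign. Ibsp in the space averaged 3.36 and 3.34 in GOF animals, against 5.28 and 3.44 in controls, close to negative probe averages of 3.01 and 2.51 in GOF and 3.17 and 2.84 in controls.

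Alpl in the space averaged 3.89 and 3.36 in GOF animals, against 4.61 and 3.97 in controls, with a difference of -0.18 (95% interval -0.56 to 0.20 in the joint-region fit). Panx3 in the space averaged 3.53 and 3.88 in GOF animals, against 3.61 and 4.79 in controls, with a difference of -0.19 (95% interval -0.58 to 0.20 in the joint-region fit). Runx3 in border-zone cartilage averaged 9.07 and 10.6 in GOF animals, against 12.3 and 10.6 in controls, which was its highest joint type in both groups.

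Counted together, none of the 10 genes passed in the limma fit over all types for GOF minus control in border-zone cartilage (0.00517% of all targets did), perichondrium (0.0155%) or space (0.103%). At an unadjusted limma p below 0.05 the number was 1, 0 and 1 in these types. In the joint-region fit 0, 1 and 3 passed, where 0.212%, 1.03% and 2.69% of all targets did, and with edgeR 0, 1 and 1 passed, where 0.16%, 1.18% and 1.86% did. On means of log2(signal + 1), animals of the groups did not overlap for 4, 6 and 4 of the genes. The share over all targets was 37.6%, 36.6% and 38.6%. Counts of genes without overlap use this scale throughout and can differ from the means of signal given for single genes. The median difference of the 10 genes was 0.02, 0.08 and 0.13, beside -0.04, -0.05 and -0.04 over all targets. For differences of the genotype effect between types, no gene passed in any of the 3 contrasts in the limma fit over all types (0.0% of targets in each), with 0 genes at an unadjusted p below 0.05, nor in edgeR (0.279% of targets for space minus border-zone cartilage), nor in the joint-region fit (0.765% of targets for space minus border-zone cartilage, 0.0672% for perichondrium minus border-zone cartilage and 0.0155% for space minus perichondrium).

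Fusion regions were set against the control inter-joint space. This contrast and the genotype contrast in the space share the control animals. Pth1r averaged 16.8 and 15.3 in fusion regions of GOF replicates 1 and 2, against 10.1 and 9.18 in the control space. Mef2c averaged 14.7 and 15.7 in fusion, against 8.40 and 8.42 in the control space. Spp1 averaged 7.92 and 9.09 in fusion, against 3.30 and 3.01 in the control space. The animals did not overlap for any of these genes. On means of log2(signal + 1) this was so for 3 of the 10 genes and for 41.9% of all targets. Spp1 had its highest group mean in fusion, 8.51 ± 0.83 (SD, n = 2). Its region medians in fusion were 7.61 in GOF replicate 1 and 3.51 in GOF replicate 2, where 1 of 8 regions stood at 38.1.

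None of the 10 genes passed in the limma fit over all types (0.729% of all targets did), with Pth1r lowest at 0.69 ± 0.21 (SE, n = 2 each, limma adjusted p = 0.241) and 1 gene at an unadjusted p below 0.05. In the joint-region fit 3 passed, where 5.21% of all targets did. Mef2c rose by 0.80 ± 0.14 (limma adjusted p = 9.59e-05), Pth1r by 0.69 ± 0.14 (limma adjusted p = 0.000487) and Spp1 by 0.60 ± 0.18 (limma adjusted p = 0.0428). The Mef2c and Pth1r calls held without any 1 of the 4 animals, with adjusted p up to 0.00586 and 0.0366, and the Spp1 call was lost without each of them, with differences of 0.54 to 0.66 and adjusted p between 0.0570 and 0.379. With edgeR 2 genes passed, where 4.15% of targets did: Spp1 rose by 1.31 (adjusted p = 2.91e-05) and Pth1r by 0.71 (adjusted p = 0.00140), whereas Mef2c was 0.91 (adjusted p = 0.173). Chondrocyte markers moved far more between these regions, summing to 4191 and 4984 in fusion, against 1155 and 1048 in the control space. Col10a1, which lies within the receptor background so that a change could go unseen, averaged 4.93 and 5.95 in fusion, against 4.92 and 5.09 in the control space, with a difference of 0.06 (95% interval -0.30 to 0.42 in the joint-region fit).

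Within GOF knees, fusion regions gave 1 call among these genes against the other types, that of Runx3. Against the GOF space none passed in the limma fit over all types (0.222% of targets did) or in the joint-region fit (4.57%), and over all types 0 had an unadjusted p below 0.05. EdgeR called 0 there, where 2.17% of targets passed. The animals did not overlap for 5 genes, where 36.1% of targets did not. Against GOF border-zone cartilage none passed over all types (0.0103%, with 0 at an unadjusted p below 0.05), and in the joint-region fit Runx3 alone did, where 1.19% of targets did. EdgeR called 0 there, where 0.372% of targets passed, and animals did not overlap for 8 genes, where 32.6% of targets did not. Runx3, which acts beside Runx2 in chondrocyte maturation, averaged 6.79 and 4.52 in fusion, against 9.07 and 10.6 in GOF border-zone cartilage. It fell by 0.66 on the log2 scale in that fit (limma adjusted p = 0.0408), and without GOF replicate 2 the difference was -0.38 (limma adjusted p = 0.761). The call was also lost without control replicate 1 (adjusted p = 0.0849) or 2 (adjusted p = 0.0942), which enter through the shared spread. Against GOF perichondrium none passed over all types (0.0% of targets, 0 at an unadjusted p below 0.05) or in the joint-region fit (1.47%). Alpl averaged 4.22 and 5.9996 in fusion, against 3.76 and 3.75 in GOF perichondrium, with a difference of 0.43 (95% interval 0.08 to 0.79, limma joint-region adjusted p = 0.333).

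Among control regions, Runx3, Pth1r and Mef2c were higher in border-zone cartilage than in the space in both animals. Runx3 averaged 4.25 and 6.26 in the control space, against 12.3 and 10.6 in control border-zone cartilage. In the control perichondrium it averaged 5.55 and 6.51. Neither type overlapped with border-zone cartilage. Pth1r, at 10.1 and 9.18 in the control space and 10.8 and 11.6 in the control perichondrium, also did not overlap with its 12.9 and 13.1 in border-zone cartilage, and passed in neither limma fit. In the fit over all types no gene passed for space minus border-zone cartilage (1.3% of targets did), with Runx3 at -0.95 ± 0.38 (SE, n = 2 each, limma adjusted p = 0.603) as the 1 gene at an unadjusted p below 0.05, or for perichondrium minus border-zone cartilage (0.186%, with 0 genes at an unadjusted p below 0.05). In the joint-region fit 2 genes passed for space minus border-zone cartilage, where 7.43% of targets did. Runx3 fell by 0.95 on the log2 scale (limma adjusted p = 9.85e-05), and Mef2c fell by 0.47 (limma adjusted p = 0.0185). Runx3 alone passed for perichondrium minus border-zone cartilage, where 2.7% of targets did, and fell by 0.74 (limma adjusted p = 0.00638). Runx3 passed in edgeR too, at -1.08 (adjusted p = 2.21e-05) and -0.92 (adjusted p = 9.43e-05), where 5.33% and 2.31% of targets did. The size of the Runx3 difference depended on the animal. In the space it was -0.60 without control replicate 1 (limma joint-region adjusted p = 0.357) and -1.31 without control replicate 2 (adjusted p = 0.00108). In the perichondrium it was -0.53 without control replicate 1 (limma adjusted p = 0.951) and -0.95 without control replicate 2 (adjusted p = 0.0766). Mef2c in the space was -0.54 without control replicate 1 (limma adjusted p = 0.178) and -0.39 without control replicate 2 (adjusted p = 0.548). Animals did not overlap for 3 genes in the space contrast, where 43.6% of targets did not.

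Space minus perichondrium gave no call among the 10 genes in either limma fit (0.0% of targets over all types, with 0 of the genes at an unadjusted p below 0.05, and 1.6% in the joint-region fit). In GOF animals Runx3 averaged 6.25 and 5.42 in the GOF space and 6.31 and 8.76 in the GOF perichondrium, beside 9.07 and 10.6 in GOF border-zone cartilage. Of its 3 highest regions, at 38.1, 29.01 and 23.3, all were border-zone cartilage, from GOF replicate 2, control replicate 1 and GOF replicate 1.

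Reference cartilage, the most chondrocyte-rich region, carried Pth1r at 20.2 and 21.8 in control replicates 1 and 2, against 12.9 and 13.1 in their border-zone cartilage. The difference was 0.76 ± 0.21 (SE, n = 2 each, limma adjusted p = 0.0974), the closest any of the genes came to the threshold in the fit over all types. No gene passed there (0.734% of targets did), although 2 had an unadjusted p below 0.05, or with edgeR (0.274%). Animals did not overlap for 4 genes, where 42.1% of targets did not. Runx2 was 13.99 and 7.25 in control reference cartilage, against 5.07 and 5.83 in control border-zone cartilage, with a difference of 0.92 (limma adjusted p = 0.262). The higher Runx2 value rests on 9 counts in 1 region. Col10a1 stayed at 4.66 and 4.83 in control reference cartilage, from 3 and 4 counts, against 5.71 and 4.42 in border-zone cartilage, in both cases within the receptor background. GOF reference cartilage held Mef2c at 20.2 and 29.01 and Runx3 at 15.5 and 14.504, against 18.6 and 8.46 for Mef2c and 13.99 and 9.67 for Runx3 in the control regions.

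Ibsp and Col10a1 were highest in 1 region, the reference mesenchyme of GOF replicate 2. Ibsp was 29.01 there, from 32 counts (exact 95% Poisson interval 19.8 to 40.9, counting error only), and 1.63 in the region of GOF replicate 1, against 4.35 and 2.72 in the control regions. Col10a1 was 20.8 there, from 23 counts (interval 13.2 to 31.3), and 1.09 in GOF replicate 1, against 4.35 and 4.89 in the controls. Both were the highest values of these genes in the whole table, where the next were 10.9 for Ibsp and 11.97 for Col10a1. Runx2 at 11.8, Alpl at 9.97, Sp7 at 9.06 and Panx3 at 7.25 were also higher there than in the other 3 reference mesenchyme regions. Spp1 was 6.35, beside 2.72 in GOF replicate 1 and against 1.09 and 4.89 in the controls. Smpd3, a sphingomyelinase needed for mineralisation, was 10.9 in the same region and in GOF replicate 1 2.18, against 4.35 and 3.26 in controls. It is 1 of 25 measured hypertrophic genes, which summed to 303 there and 259 in GOF replicate 1, against 219 and 247 in controls. The summed signal of the 26 osteoblast genes went the other way, at 1255 in this region and 1699 in GOF replicate 1, against 2133 and 2439 in controls. Such a sum follows the genes with the highest signal. Of the 26 genes, 20 reached 2 times the negative probe in this region and 16 in GOF replicate 1, against 14 and 16 in controls. The negative probe itself was 1.72 in this region and 3.14 in GOF replicate 1, against 2.97 and 3.17 in controls.

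**Figure D4:**
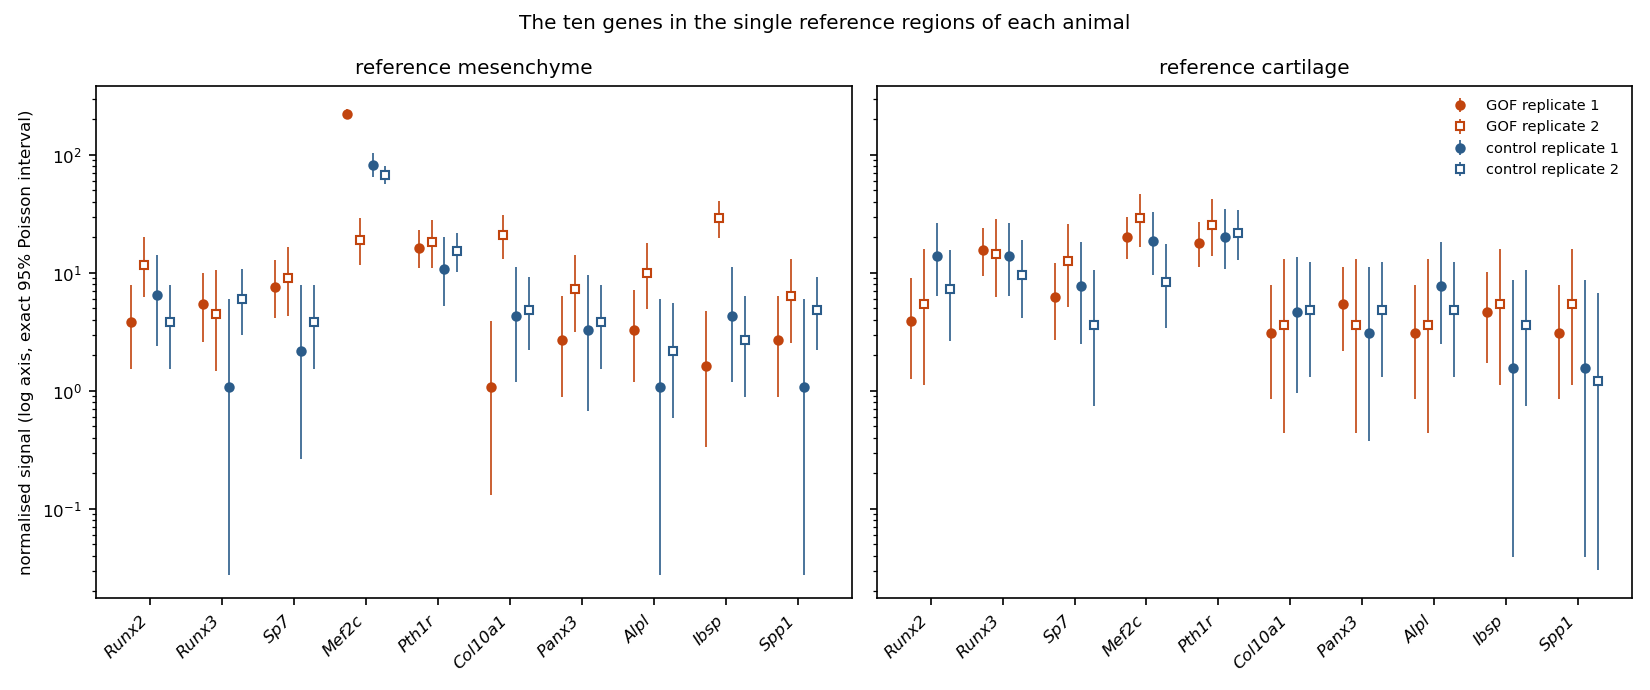
Normalised signal of the 10 genes (log axis) in the single reference mesenchyme and reference cartilage region of each animal, with exact 95% Poisson intervals of the counts; orange is GOF, blue is control, filled circles are replicate 1 and open squares replicate 2. Ibsp and Col10a1 stand out in the GOF replicate 2 mesenchyme, and Mef2c in the mesenchyme regions of the other 3 animals.

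Summed markers of some other cell types were also highest in this region among the reference mesenchyme regions, but those of macrophages were not. Endothelial markers summed to 101.5 in it and 75.1 in GOF replicate 1, against 63.1 and 54.4 in controls. Neuron and Schwann markers summed to 86.1 in it and 52.2 in GOF replicate 1, against 45.7 and 55.5 in controls. A large part of that sum in this region came from 1 gene, Sox10. Osteoclast markers summed to 39.9 in it and 29.9 in GOF replicate 1, against 33.7 and 33.2 in controls. Macrophage markers summed to 83.4 in it and 120.7 in GOF replicate 1, against 68.5 and 68.5 in controls. The part of these cell types in the pattern was not tested. Muscle markers were present at 926, within the range of the other regions, whereas Mef2c was 19.04 there and 221 in GOF replicate 1, against 82.7 and 67.99 in the controls. Its negative probe was the lowest of all regions, 1.72. It is a single region, and the sources used here do not give its place in the knee, so its values carry no genotype comparison.

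Genes that work beside these 10 were examined in 2 lists, 25 measured genes of the hypertrophic programme and 26 of the osteoblast programme. In the fit over all types none of either list passed for GOF minus control in border-zone cartilage or perichondrium, and in the space Postn, a matricellular protein of periosteum and fibrous tissue, fell by 1.505 on the log2 scale (limma adjusted p = 0.0442). The joint-region fit called 5 of 25 hypertrophic genes higher and 1 lower in the GOF space, where it called 2.69% of all targets, 212 higher and 309 lower. The higher genes were Gli1 and Ptch1, targets of hedgehog signalling, at 0.83 (limma adjusted p = 2.82e-05) and 0.56 (adjusted p = 0.00493), Mef2d and Mef2a, relatives of Mef2c, at 0.68 and 0.57, and Hdac4, a repressor of Mef2 factors, at 0.51. Gadd45b fell by 0.84. Of the 26 osteoblast genes 0 were higher and 4 lower there: Postn, the bone and fibrous collagen genes Col1a1 and Col1a2 at -0.69 and -0.77, and Enpp1, which makes pyrophosphate, at -0.65. The list medians were 0.19 and -0.04, beside -0.04 over all targets. In the perichondrium, where 1.03% of targets passed in that fit, Hdac4 was higher at 0.52 and Gadd45b (-0.65) and Postn (-1.16) were lower, and in border-zone cartilage, where 0.212% did, Foxc1 was higher at 0.56.

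In fusion minus control space the fit over all types called 2 of 25 hypertrophic genes higher and 0 lower, where 0.729% of all targets passed: Col9a1, a cartilage collagen gene, at 1.596 (limma adjusted p = 0.00743), and Fgfr3, a receptor of growing chondrocytes, at 0.88 (adjusted p = 0.0483). Of 26 osteoblast genes 1 was higher, the receptor gene Fgfr2 at 0.98 (adjusted p = 0.0221), and 1 lower, Enpp1 at -1.001 (adjusted p = 0.0366). The joint-region fit, where 5.21% of targets passed, called 9 hypertrophic genes higher and 1 lower, and 3 osteoblast genes higher and 4 lower. Col9a1 and Fgfr3 belong to cartilage before hypertrophy as well. The list medians were 0.23 and 0.07, beside -0.04 over all targets. Against the GOF space, fusion was higher in Col9a1 (1.44, limma adjusted p = 0.0388) and Col1a2 (1.11, adjusted p = 0.0485), where 0.222% of targets passed, and against GOF border-zone cartilage in Postn (1.82, adjusted p = 0.0458), where 0.0103% did. In controls, space minus border-zone cartilage, where 1.3% of targets passed, gave 3 hypertrophic genes lower (Col9a1, Fgfr3 and the hedgehog receptor gene Ptch1), 3 osteoblast genes higher (Postn at 2.22, the cadherin gene Cdh11 at 1.24 and Enpp1 at 1.15) and Fgfr2 lower.

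Rank correlations between the 10 genes from region to region were weak. Sparse counts weaken such correlations by themselves, so these do not tell whether the genes vary independently. Over the joint regions the 45 pairs had Spearman correlations between -0.22 (Mef2c with Col10a1) and 0.22 (Mef2c with Spp1), a description of sparse counts that share library and depth. Over the 22 animal-by-type means, and among 16047 other targets, Mef2c was most alike Emp1 (Pearson r = 0.91), Ablim3 (0.89) and Tril (0.89). Pth1r was most alike Igf2r (0.86), Gaa (0.86) and Peg10 (0.84), and Runx3 was most alike Slc38a3 (0.88), Col15a1 (0.86) and Scube3 (0.85). These values were picked as the highest of many and include the reference regions.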

How the data were processed

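RNA was measured in regions of 4 animals, with the Mouse Whole Transcriptome Atlas probe set. Per the file headers, the authors deposited linear signal, target counts that had been scaled so that every region has one upper quartile. The submitters' processing notes name mm10 and Seurat, with no role; the sources used here do not name the counting pipeline. Of the values, 99.98% were whole multiples of 1 step per region (tolerance 0.01 count), so whole counts were recovered; the smallest was 1. A no-template sample was not analysed here.

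The replicate is the animal. Log2(signal + 1) was averaged over regions per animal and type, giving 22 means in 11 groups, and fitted with limma 3.58.1 in R 4.3.3 (animal as random block, correlation 0.0258, trend), with Benjamini-Hochberg adjustment over 19346 targets and a threshold of 0.05. Folds of low targets are understated on this scale. With 2 animals per group, the p values rest on spread pooled over types and targets, and no permutation of animals could reach that threshold. Alternatives were the joint-region fit, a pseudocount of 3, a filter at 1.5 times the negative probe (16328 targets, 8 of the 10 genes), 2 scalings, a replicate block, leaving out animals, and edgeR 4.0.16 on recovered counts summed per animal and type. All were listed except the changes made within the joint-region fit, leaving out the GOF replicate 2 reference mesenchyme, and the receptor background, which were chosen after seeing the data. The 10 genes and all gene lists were chosen with earlier results of these data known. All 10 genes were named, list genes where they passed, and the 3 most alike targets for some. Smpd3, Gli1, Ptch1 and Sox10 in the GOF replicate 2 reference mesenchyme are examples from their lists, whose other genes are not given there one by one. The limma step was tested on simulated data.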

Additional observations from a re-analysis of the deposited data

Results flagged for a closer look

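Values outside the comparisons, in GOF reference regions, exceeded those of all 86 control regions for 4 entries. Ibsp was 29.01 in the GOF replicate 2 reference mesenchyme region, against a highest control region of 10.9. Col10a1 was 20.8 in the same region, against a highest control region of 10.9. Mef2c was 221 in the GOF replicate 1 reference mesenchyme region, against a highest control region of 82.7, itself a reference mesenchyme. Pth1r was 25.4 in the GOF replicate 2 reference cartilage region, from 14 counts, against a highest control region of 24.2. Each is a single region of 1 animal, and no difference between groups was tested.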

How the results depend on the processing

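No gene among the 10 passed in any of the 14 contrasts of the fit over all types. This count stayed at 0 with log2(signal + 3), the low-signal filter, both scalings, the replicate block, leaving out each animal and leaving out the GOF replicate 2 reference mesenchyme. The joint-region fit called 1 gene in GOF minus control perichondrium, 3 in GOF minus control space, 3 in fusion minus control space, 1 in fusion minus GOF border-zone cartilage, 2 in control space and 1 in control perichondrium, each minus border-zone cartilage. EdgeR called 1, 1, 2, 0, 1 and 1 in the same order. Leaving out 1 animal leaves a lone animal in 1 group, and some joint-region calls were then lost, as given above. With the negative probe as scaling, the joint-region fit gave 0, 2, 3, 1, 1 and 1. It then called between 1 and 886 of all targets per contrast. The median of all targets moved by between -0.07 and 0.16 relative to the upper-quartile scaling. With the replicate block the joint-region fit called 1, 3, 3, 0, 2 and 1, and between 8 and 1398 of all targets per contrast. Runx3 in fusion minus GOF border-zone cartilage then had a limma adjusted p of 0.0601. The numbers give no pairing of animals by design: same-numbered animals correlated at 0.05, 0.05 and 0.03 in their deviations. The number of all targets called ran up to 252 over all types and 1438 in the joint-region fit. None of the 22 differences larger than their SE changed sign. Where single calls were lost, the cause was not tested. A lone animal in a left-out fit is assumed to vary like the others. Averaged over all regions, Ibsp, Alpl, Panx3, Col10a1, Spp1 and Runx2 lie within the receptor background, so changes in them could go unseen. In GOF fusion the group means of Spp1, 8.51, and Runx2, 6.23, were above the receptor 95th percentile of 6.14. That percentile describes means over all regions. The part of sequencing depth in this was not tested.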

Other observations

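Sp7, which follows Runx2 in osteoblasts, had the narrowest range of joint group means among the genes whose overall mean was above the receptor 95th percentile. Its group means in the joint types lay between 6.02 in GOF border-zone cartilage and 7.14 in the GOF space. The means in GOF and control border-zone cartilage, 6.02 and 6.12, were not above that percentile of 6.14, so a narrow range close to background says little. In control reference mesenchyme Sp7 was 2.18 and 3.81, beside a negative probe of 2.97 and 3.17. Its highest region, at 19.6 from 9 counts, was a GOF replicate 1 perichondrium region. Panx3 had its 3 highest regions, at 12.7, 10.9 and 9.52, in border-zone cartilage of GOF replicate 2, from 7, 9 and 7 counts. Its mean there was 5.16, beside 4.81 in GOF replicate 1 and against 5.13 and 3.98 in controls.

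In the GOF replicate 2 reference mesenchyme, Gli1 was 21.8 and Ptch1 29.01, beside 3.26 and 13.6 in GOF replicate 1, and against 4.35 and 8.70 for Gli1 and 6.53 and 7.07 for Ptch1 in controls. Sox10, a Schwann cell factor, was 38.1 there and 8.70 in GOF replicate 1, against 7.61 and 4.89 in controls. It made up a large part of the neuron and Schwann marker sum of that region, 86.1.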
